A study of Mus musculus with 15 samples.

Results

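The genes described here encode the mouse receptors for the constant part of IgG and the chain through which most of them signal. Rows of the expression table were taken by gene symbol for Fcgr1, Fcgr2b, Fcgr3, Fcgr4, Fcer1g and Fcgrt, and all 6 were found among 14801 rows. Rows were matched by symbol alone, but the list of symbols was chosen with earlier results of these data known. The table covers 15 RNA sequencing libraries from bone marrow of healthy mice, 3 libraries for each of 5 populations isolated by flow cytometry. The populations are named CMP (the usual abbreviation of common myeloid progenitor), CD115plusGMP (GMP is the usual abbreviation of granulocyte-monocyte progenitor), PreNeut_Neutrophil, ProNeut_Neutrophil (PreNeut and ProNeut below) and Neutrophil. The labels give no strain, age, sex, sort gate or treatment. Whether replicates stem from separate mice is not stated, and the spread that each p-value rests on could therefore be technical.

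Fc gamma receptors bind the constant part of IgG on coated particles and immune complexes. The activating receptors Fcgr1, Fcgr3 and Fcgr4 have a ligand-binding chain that depends on Fcer1g, the common gamma chain, whose ITAM (a tyrosine motif) is phosphorylated by Src-family kinases such as Lyn and Fgr and then recruits the kinase Syk. Fcgr2b is the inhibitory receptor: it carries its own ITIM motif, which recruits the lipid phosphatase Inpp5d (SHIP-1). Fcgrt is the neonatal Fc receptor, an MHC class I-like chain that pairs with B2m and protects IgG from breakdown inside cells. Neutrophils are known to use Fcgr3 and Fcgr4 to take up coated targets and to respond to immune complexes.

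In GRCm38, 4 of the 6 genes lie on chromosome 1. Fcgr2b (Entrez 14130, chr1:170958617-170976547, minus strand), Fcgr4 (Entrez 246256, chr1:171018920-171029761, plus strand) and Fcgr3 (Entrez 14131, chr1:171051174-171064935, minus strand) together span 106 kb. Fcer1g (Entrez 14127, chr1:171229572-171234365, minus strand) lies 165 kb further on. Fcgr1 (Entrez 14129, chr3:96282909-96293969, minus strand) and Fcgrt (Entrez 14132, chr7:45092990-45103851, minus strand) are on other chromosomes. Fcgr2b shares 155 exon bases with the antisense gene Gm38204, and the other 5 share none with an opposite-strand gene. Fcgr2b, Fcgr3 and Fcgr4 are related in sequence, and how reads matching several genes were counted is not given in the sources used here, so reads could be misassigned among them.

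The promoters of the 4 chromosome 1 genes are shown because these genes were the ones with substantial reads, and their levels parted between populations. Each window runs from 250 bases before to 50 bases after the first RefSeq start listed for the gene (GRCm38.p6). It is written 5′ to 3′ on the gene's own strand. The windows of Fcgr3 and Fcgr2b lie inside the gene intervals given above, so these genes may also start further upstream. Positions are chr1:171059354-171059653 (minus strand) for Fcgr3, chr1:171018676-171018975 (plus strand) for Fcgr4, chr1:171234300-171234599 (minus strand) for Fcer1g and chr1:170976022-170976321 (minus strand) for Fcgr2b. Capitals mark GAGGAA, the core of PU.1-type ETS sites, searched on both strands and here read as its complement TTCCTC.
Fcgr3: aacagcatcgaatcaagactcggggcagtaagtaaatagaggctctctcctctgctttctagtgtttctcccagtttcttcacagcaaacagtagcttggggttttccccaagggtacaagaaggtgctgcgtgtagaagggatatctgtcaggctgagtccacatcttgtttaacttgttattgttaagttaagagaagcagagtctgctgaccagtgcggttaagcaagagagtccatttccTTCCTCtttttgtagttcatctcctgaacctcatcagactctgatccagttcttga
Fcgr4: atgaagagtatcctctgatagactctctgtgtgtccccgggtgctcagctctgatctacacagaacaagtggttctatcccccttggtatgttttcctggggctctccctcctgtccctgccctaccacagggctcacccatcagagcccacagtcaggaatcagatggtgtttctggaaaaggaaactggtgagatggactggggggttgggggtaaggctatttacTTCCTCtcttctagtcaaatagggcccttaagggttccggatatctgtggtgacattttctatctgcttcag
Fcer1g: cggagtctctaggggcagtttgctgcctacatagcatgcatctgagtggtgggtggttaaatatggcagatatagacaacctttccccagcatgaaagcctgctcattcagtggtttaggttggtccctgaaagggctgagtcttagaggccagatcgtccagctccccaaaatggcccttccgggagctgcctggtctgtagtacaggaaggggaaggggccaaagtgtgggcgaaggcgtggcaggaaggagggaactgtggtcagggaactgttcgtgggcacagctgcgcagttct
Fcgr2b: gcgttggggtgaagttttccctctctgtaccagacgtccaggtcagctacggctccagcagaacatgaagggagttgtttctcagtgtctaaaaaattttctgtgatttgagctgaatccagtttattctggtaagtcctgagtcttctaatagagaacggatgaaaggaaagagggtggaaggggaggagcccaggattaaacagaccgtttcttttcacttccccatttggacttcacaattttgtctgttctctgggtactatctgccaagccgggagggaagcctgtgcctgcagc
The motif GAGGAA lay 6 bases before the start of Fcgr3, 22 bases before that of Fcgr4 and 55 bases before that of Fcgr1. It was not in these windows of Fcer1g, Fcgr2b or Fcgrt. Among 27025 RefSeq promoter windows of the same length, 28.3% held it, so its presence in 3 of 6 is a description of letters only. The palindromic GAS-type element TTCNNNGAA was found in the Fcgr1 window and in 8.47% of all windows.

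Expression values are log2 CPM as deposited, that is reads scaled on a log2 scale to a library size set by the submitters' processing. The 15 libraries form 2 sets that differ in depth and in what was counted. CMP, CD115plusGMP and Neutrophil had 810794 to 1444403 recovered reads per library, of which 55.6% to 69.5% fell on 503 identifiers with no gene symbol. PreNeut and ProNeut had 7493694 to 68171606 reads, with 0.102% to 0.146% on those identifiers. ND6, coded on the opposite strand from the other mitochondrial protein genes, held 69.1% to 93.3% of the reads on mitochondrial protein genes in these 9 shallower libraries, and 0.154% to 0.230% in the 6 deeper ones. How strand was counted is not given in the sources used here and was not tested. Values in the 9 libraries (the first set) may thus include reads of a gene's opposite strand and lack reads of its own. Few or 0 reads of a gene in that set need not mean low expression. Set and population cannot be told apart in any comparison across sets. A gene with 0 reads is listed between -1.31 and 0.63 log2 CPM in the first set, and between -8.14 and -4.90 in the deeper libraries. Of 16 neutrophil markers, 13 had reads in CMP (summed 40.4 to 45.1 CPM), 15 in CD115plusGMP (363 to 776 CPM), 15 in Neutrophil (11470 to 39536 CPM) and all 16 in PreNeut (79171 to 101411 CPM) and ProNeut (100485 to 125569 CPM). In these bulk samples, fewer cells of a type and less RNA per cell cannot be told apart.

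**Figure D1:**
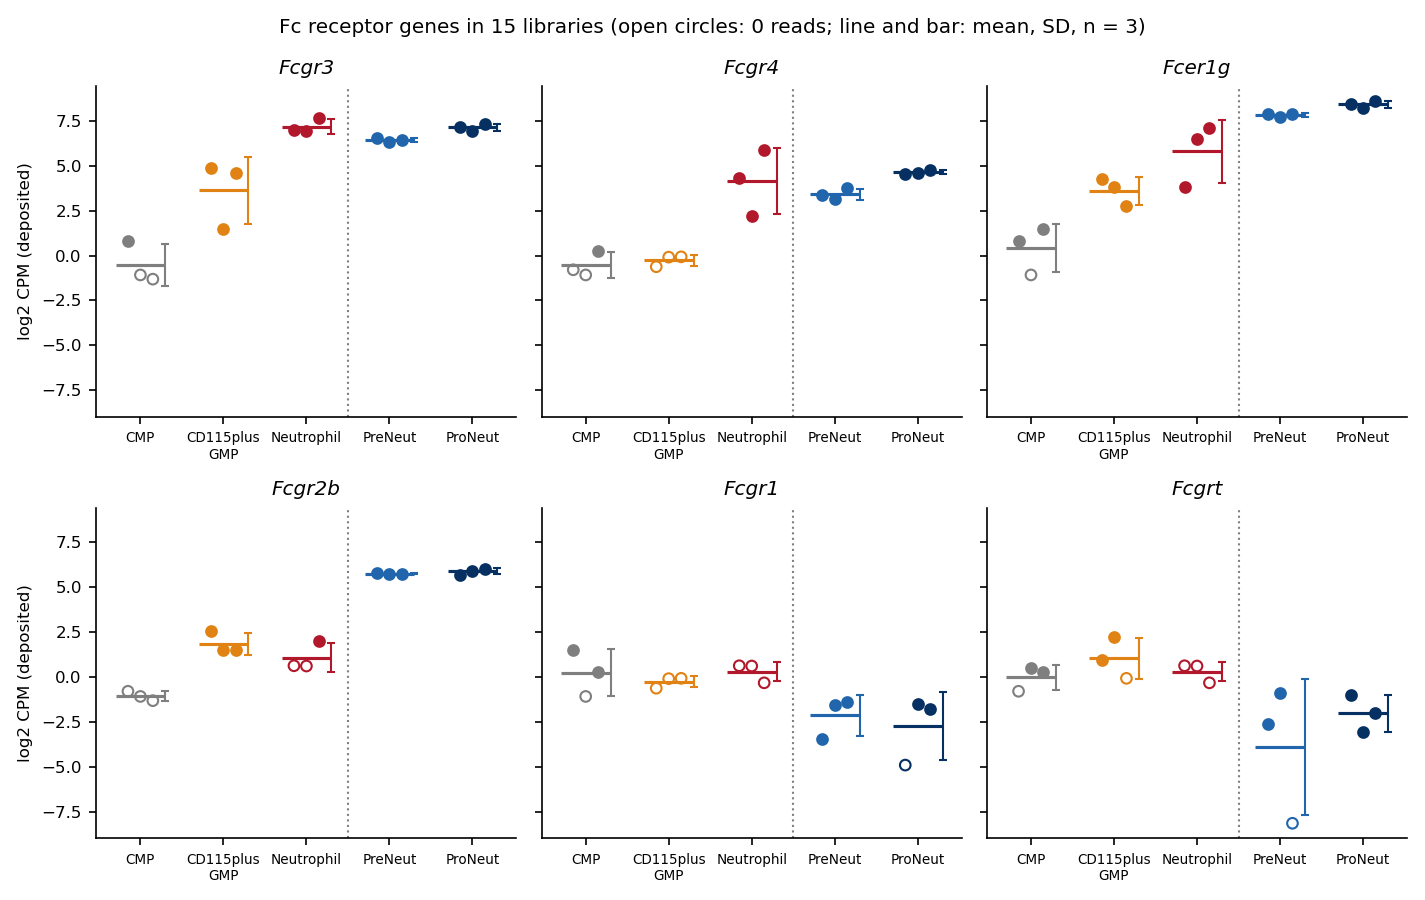
Deposited log2 CPM (y axis) of the 6 genes in each of the 15 libraries, by population; filled circles are libraries with reads, open circles libraries with 0 reads, lines and bars the mean and SD of 3 libraries, and the dotted line separates the library sets. Fcgr3 and Fcer1g are high in all PreNeut and ProNeut libraries, while Fcgr2b is at 0 to 2 reads in the Neutrophil libraries.

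Fcgr3, the low-affinity activating receptor, had 1, 0 and 0 reads in the CMP libraries and 22, 1 and 12 in CD115plusGMP. In Neutrophil it had 40, 39 and 126 reads, or 6.97, 6.92 and 7.66 log2 CPM. It had 6.55, 6.33 and 6.45 log2 CPM in PreNeut and 7.18, 6.92 and 7.30 in ProNeut. CMP was lowest and CD115plusGMP was next, above every CMP library but with replicate 2 far below its other libraries. PreNeut lay above both, and ProNeut and Neutrophil were the highest and overlapped each other. This order holds for log2 CPM at the implied library sizes, and its place across the 2 sets depends on them. The mean level was -0.53 ± 1.15 in CMP, 3.65 ± 1.87 in CD115plusGMP, 6.44 ± 0.11 in PreNeut, 7.13 ± 0.20 in ProNeut and 7.18 ± 0.42 in Neutrophil (log2 CPM, SD, n = 3).

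Fcgr4, the activating receptor of IgG2a and IgG2b, had reads in 1 of 6 progenitor libraries (1 read in CMP replicate 3). It had 6, 1 and 36 reads in the Neutrophil libraries, which gave 4.33, 2.20 and 5.87 log2 CPM. In PreNeut it stood at 3.38, 3.13 and 3.74 log2 CPM, and in ProNeut at 4.52, 4.62 and 4.77. All ProNeut libraries were above all PreNeut libraries, and the wide Neutrophil spread covered both. Its means were 3.42 ± 0.31 in PreNeut, 4.64 ± 0.12 in ProNeut and 4.13 ± 1.84 in Neutrophil (log2 CPM, SD, n = 3).

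Fcer1g, the signalling chain, was the most abundant of the 6 in PreNeut and ProNeut. It had 1, 0 and 3 reads in CMP, 14, 7 and 3 in CD115plusGMP and 4, 29 and 85 in Neutrophil. Its level was 7.89, 7.72 and 7.91 log2 CPM in PreNeut and 8.43, 8.23 and 8.60 in ProNeut. On average 98.7% of genes in a PreNeut library and 99.2% in a ProNeut library stood at or below it, against 83.1% in Neutrophil. Its order was CMP, CD115plusGMP, Neutrophil, PreNeut and ProNeut, in which CD115plusGMP (3.60 ± 0.77 log2 CPM) and Neutrophil (5.80 ± 1.76) overlapped and the other neighbours did not (SD, n = 3).

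Fcgr2b, the inhibitory receptor, was at 0 reads in all 3 CMP libraries and at 4, 1 and 1 reads in CD115plusGMP. In Neutrophil it had 0, 0 and 2 reads. PreNeut held 5.78, 5.75 and 5.72 log2 CPM and ProNeut 5.70, 5.92 and 6.02. The PreNeut and ProNeut libraries overlapped, at 5.75 ± 0.028 and 5.88 ± 0.17, far above the other 3 populations. CD115plusGMP (1.85 ± 0.60) and Neutrophil (1.08 ± 0.80) also overlapped, and 0 reads give 0.63, 0.62 and -0.32 log2 CPM in the 3 Neutrophil libraries (SD, n = 3).

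Fcgr1, the high-affinity IgG receptor, and Fcgrt were near the limit of detection everywhere. Fcgr1 had 2, 0 and 1 reads in CMP and none in CD115plusGMP or Neutrophil. It had 2, 8 and 53 reads in PreNeut and 0, 7 and 7 in ProNeut, at -2.14 ± 1.13 and -2.72 ± 1.89 log2 CPM (SD, n = 3). Fcgrt had 4, 13 and 0 reads in PreNeut, the 0 being in the deepest of all libraries, and 7, 2 and 6 in ProNeut. It had 0 to 2 reads in each library of the first set, while its partner B2m stood at 9.22 ± 0.098 in PreNeut, 9.32 ± 0.12 in ProNeut and 7.52 ± 0.27 log2 CPM in Neutrophil (SD, n = 3). Their log2 values in the first set rest on 0 to 3 reads per population, so no fold is given for either there. All 6 genes passed the filter on low values. Fcgr1 did so partly through the value that 0 reads take in Neutrophil, and Fcgrt through CMP and CD115plusGMP libraries with 1 or 2 reads.

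Per exon length, which allows genes to be compared, Fcer1g led in PreNeut at 8.03 log2 CPM per kb of exon. Fcgr3 followed at 5.65, then Fcgr2b at 3.21 and Fcgr4 at 3.09. In ProNeut the order of the last 2 was different: Fcer1g was at 8.61, Fcgr3 at 6.34, Fcgr4 at 4.31 and Fcgr2b at 3.35. Exon length is the union of all annotated exons and can exceed the transcript used, as for Fcgr2b with 5.79 kb.

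CD115plusGMP was compared with CMP to ask which Fc receptor genes differ between these progenitor populations. Fcgr3, Fcgr2b and Fcer1g were higher in CD115plusGMP, and Fcgr4, Fcgr1 and Fcgrt did not pass the test. Groups were compared by limma with all 15 libraries in 1 fit, and a gene was called at a Benjamini-Hochberg adjusted p under 0.05 and a difference of at least 1 log2 unit. Thus 3 of 6 were called higher, against 8.08% of the 14161 genes tested. The libraries of these 3 genes did not overlap, which held for 26.1% of genes in this direction. For Fcgr2b this was fixed by its 0 reads in CMP. A gene with 0 reads is listed at -0.62 or above in CD115plusGMP and at -0.79 or below in CMP. The share likewise includes 686 tested genes with 0 reads in both populations. Fcgr3 was 4.18 ± 0.72 log2 units higher (limma, SE, n = 3; adjusted p = 0.000816). Its 35 against 1 reads, scaled to library size, gave a ratio of 60.7, with a 95% interval of 10.2 to 2464 that covers counting error only. The difference was 5.26 without CD115plusGMP replicate 2.

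Fcer1g was 3.19 ± 0.73 log2 units higher in CD115plusGMP (limma, SE, n = 3; adjusted p = 0.00779), on 24 against 4 reads, a ratio of 10.4 (95% counting interval 3.57 to 41.2). Fcgr2b differed by 2.91 ± 0.49 (limma, SE, n = 3; adjusted p = 0.000671), on 6 against 0 reads. Its level in CD115plusGMP was at least 3.47-fold higher, with 3 reads over the CMP group as the limit that a count of 0 allows. Here and below, such an at-least fold takes the reads of the higher group as counted. It leaves out their counting error, so it is not a 95% lower limit. Part of the fitted difference is the value given to 0 reads, which is 0.80 log2 units higher in CD115plusGMP than in CMP. In a trial of edgeR on the recovered reads, not among the results given here, this Fcgr2b call was lost. Monocyte and macrophage markers moved the same way: 13 of 20 had reads in CMP (44.5 to 52.0 CPM summed) and 15 of 20 in CD115plusGMP (638 to 1147 CPM). C1qa, C1qb, Spic, Vcam1 and Mertk were at 0 in CD115plusGMP. Erythroid markers went the other way, at 513 to 646 CPM in CMP and 19.0 to 30.1 CPM in CD115plusGMP. Their part in the result was not tested.

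Neutrophil was compared with CMP and with CD115plusGMP, which share the Neutrophil libraries. Against CMP, the activating receptors Fcgr3 and Fcgr4 and the chain Fcer1g were higher, and the inhibitory Fcgr2b was called on 2 reads only. Fcgr3 was 7.72 ± 0.72 log2 units higher (limma, SE, n = 3; adjusted p = 2.44e-07), with 205 against 1 reads. Fcgr4 was 4.67 ± 0.71 higher (adjusted p = 4.79e-05 by limma) with 43 against 1 reads, a ratio of 107 (95% counting interval 18.2 to 4315). Fcer1g was 5.40 ± 0.73 higher (adjusted p = 1.58e-05 by limma) with 118 against 4 reads, a ratio of 73.3 (27.9 to 273). Libraries of the 2 populations did not overlap for these genes, as for 32.7% of all genes in this direction. That share includes 884 tested genes with 0 reads in both populations. The Fcgr2b difference of 2.14 rests on 2 against 0 reads, while 0 reads alone differ by 1.37 between these populations, so no fold is given. With it, 4 of 6 were called higher, against 26.8% of all genes tested.

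Single libraries weighed on these sizes. The Fcgr4 difference from CMP was 5.63 without Neutrophil replicate 2, which had 1 read, and 3.80 without replicate 3, which had 36. The Fcer1g difference was 6.39 without Neutrophil replicate 1 and 4.75 without replicate 3. The Fcgr3 difference was 8.38 without CMP replicate 1, the CMP library with a read.

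Against CD115plusGMP, Fcgr3 was 3.54 ± 0.72 log2 units higher in Neutrophil (limma, SE, n = 3; adjusted p = 0.000982), on 205 against 35 reads, a ratio of 8.39 (95% counting interval 5.84 to 12.4). Without CD115plusGMP replicate 1 this difference was 4.15 and without replicate 2 it was 2.46. Fcgr4 was 4.39 ± 0.71 higher (adjusted p = 0.000126 by limma) on 43 against 0 reads, which is at least 20.5-fold. It was 5.36 without Neutrophil replicate 2 and 3.52 without replicate 3. Fcer1g was 2.20 ± 0.73 higher (limma, adjusted p = 0.0278), on 118 against 24 reads, but the libraries overlapped. Its call was lost with only the 9 libraries of the same set (adjusted p = 0.0732), under 3 of 4 other scalings (1.11, 1.39 and 1.63) and without any of 4 libraries: Neutrophil replicate 2 (1.85) or 3 (1.55) and CD115plusGMP replicate 2 (2.31) or 3 (1.77). Without Neutrophil replicate 1 the difference was 3.20. So 3 of 6 were called higher, against 20.2% of all genes tested. The libraries did not overlap for Fcgr3 and Fcgr4, as for 22.2% of genes in this direction.

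Fcgr2b did not pass the test between these populations. Its Neutrophil minus CD115plusGMP difference was -0.77 ± 0.49 (limma, SE, n = 3; adjusted p = 0.268), on 2 against 6 reads. It was called lower when reads were scaled to the total over the table (-1.58, adjusted p = 0.0330) and without Neutrophil replicate 3 (-1.23, adjusted p = 0.0375). Pooled over the Neutrophil libraries there were 205 Fcgr3 reads and 2 Fcgr2b reads, and in CD115plusGMP 35 and 6. Neutrophil libraries also held B lymphoid markers at 43.3 to 88.8 CPM summed, with 2 of 5 present, Cd79a at 5.85 ± 0.56 log2 CPM (SD, n = 3), and Vpreb1 and Cd22 among those at 0. Monocyte and macrophage markers summed to 1388 to 2741 CPM there, 14 of 20 with reads, and Irf8, Ms4a6c, C1qb, Spic and Mertk were among those at 0. Megakaryocyte and platelet markers summed to 239 to 429 CPM in Neutrophil, nearly all of it Gp1ba (97.6%), against 28.4 to 44.2 in CMP and 26.01 to 41.4 in CD115plusGMP. Erythroid markers were at 0 to 9.61 CPM in Neutrophil. The part of these lists in the result was not tested.

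ProNeut was compared with PreNeut to ask how the receptors differ between the populations sequenced at greater depth. Every ProNeut library was above every PreNeut library for Fcgr4, Fcgr3 and Fcer1g, and the 2 populations overlapped for Fcgr2b, Fcgr1 and Fcgrt. Non-overlap in this direction was found for 17.8% of all genes tested. With 1 spread estimated over all 15 libraries, limma called 0 of 6, against 1.84% of all genes called higher. An unadjusted limma p under 0.05 held for 0 of 6, and for 1126 higher and 515 lower of all 14161 genes. The differences were 1.223 ± 0.71 for Fcgr4 (adjusted p = 0.593), 0.69 ± 0.72 for Fcgr3 (0.929), 0.58 ± 0.73 for Fcer1g (1.0) and 0.13 ± 0.49 for Fcgr2b (1.0; log2, limma, SE, n = 3). The SE of that fit draws on the scatter of the low-count libraries.

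The spread was also estimated from the 6 PreNeut and ProNeut libraries alone, in an alternative fit added after the data were seen. There Fcgr4 was called higher in ProNeut, by 1.223 ± 0.15 log2 units (limma, SE, n = 3; adjusted p = 2.0e-05; 95% interval 0.90 to 1.54), against 3.64% of all genes. It was the only member called in this fit. Leaving out each of the 6 libraries in turn gave 1.08 to 1.39, and Fcgr4 was called each time. Fcgr3 was higher by 0.69 ± 0.099 (adjusted p = 9.1e-05; 0.48 to 0.90) and Fcer1g by 0.58 ± 0.098 (adjusted p = 0.000396; 0.37 to 0.79) in the same limma fit, both under 1 log2 unit. An adjusted p under 0.05 with a higher level in ProNeut was found for 10.8% of all genes. Fcgr2b differed by 0.13 ± 0.094 (adjusted p = 0.356 by limma), with a 95% interval of -0.066 to 0.33. Fcgr1 and Fcgrt differed by -0.58 (adjusted p = 0.747) and 1.86 (adjusted p = 0.425 by limma), on 14 against 63 and 15 against 17 reads.

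The balance between receptors can be read within each library, where scaling cancels. There were 1.72, 1.49 and 1.66 Fcgr3 reads for each Fcgr2b read in PreNeut, and 2.80, 1.995 and 2.43 in ProNeut. Fcgr4 had 0.19, 0.16 and 0.25 reads for each Fcgr2b read in PreNeut and 0.44, 0.41 and 0.42 in ProNeut. Both ratios of an activating to the inhibitory receptor were thus higher in every ProNeut library, on average by 1.47-fold for Fcgr3 and 2.13-fold for Fcgr4. The ratio of Fcgr4 to Fcgr3 was 0.124 ± 0.025 in PreNeut and 0.178 ± 0.023 in ProNeut (SD, n = 3). The chain and its receptor moved slightly apart: Fcer1g to Fcgr3 was 2.63 ± 0.12 in PreNeut and 2.44 ± 0.059 in ProNeut (SD, n = 3). None of these 4 ratios overlapped between populations, and each gave p = 0.1 in a 2-sided exact permutation test, the smallest p that 3 against 3 libraries allow (0.125 after Benjamini-Hochberg adjustment over the 5 ratios tested). Fcer1g to Tyrobp, the other ITAM adaptor chain of myeloid cells, was 1.06 ± 0.071 and 1.003 ± 0.068 (SD, n = 3) and overlapped (exact permutation p = 0.3).

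**Figure D2:**
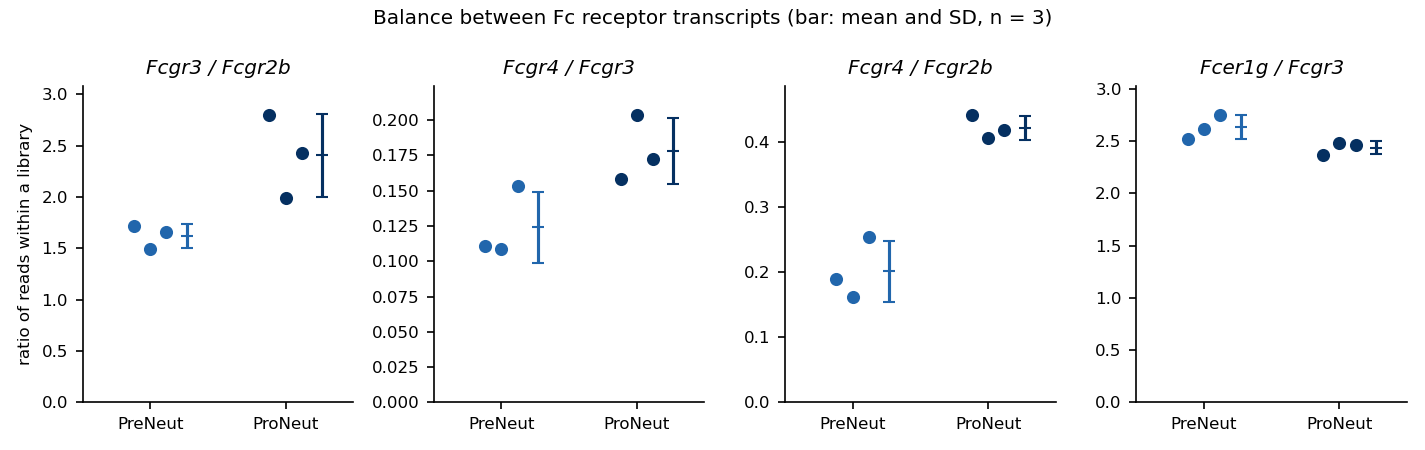
Ratio of recovered reads of 2 genes within a library (y axis, from 0) in the 3 PreNeut and 3 ProNeut libraries; points are libraries and bars the mean and SD. The ratios to Fcgr2b are higher in all ProNeut libraries, while Fcer1g to Fcgr3 is slightly lower.

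Markers of neutrophils and of other cells differed between these populations too. Of the 16 neutrophil markers, 9 were higher and 3 lower in every ProNeut library than in every PreNeut library, although their sums, led by Ngp, overlapped. The proteases Mmp8 (2.44 ± 0.34 in PreNeut and 9.64 ± 0.21 in ProNeut) and Mmp9 (5.34 ± 0.14 and 9.73 ± 0.29) stood far above PreNeut in ProNeut, and the elastase Elane below it (8.39 ± 0.18 and 3.40 ± 0.89 log2 CPM, SD, n = 3). Monocyte and macrophage markers, all 20 with reads in both, summed to 5030 to 6493 CPM in PreNeut and 6341 to 7304 in ProNeut. Lyz2, which neutrophils also express, made up 92.2% and 94.2% of these sums. By gene, 2 of the 20 were higher and 3 lower in every ProNeut library, and 15 overlapped. Vcam1 stood at 5.57 ± 0.15 and 4.40 ± 0.035 log2 CPM, while Csf1r stood at 1.35 ± 0.91 and 1.85 ± 0.12 log2 CPM (SD, n = 3). Basophil and mast cell markers summed to 143 to 157 CPM in PreNeut and 158 to 203 in ProNeut, but Hdc gave 80.9% and 98.6% of that. Of the 8, Hdc was higher and 5 were lower in every ProNeut library, such as the proteases Mcpt8 (3.08 ± 0.11 and -1.14 ± 0.79) and Prss34 (3.69 ± 0.12 and -0.54 ± 0.82 log2 CPM, SD, n = 3), with Fcer1a, the IgE-binding partner of Fcer1g, at 0 reads in ProNeut. Eosinophil markers summed to 25.6 to 30.7 CPM and 50.5 to 59.5 CPM, with 8 of 8 and 7 of 8 having reads. Ear2 gave 73.9% and 92.1% of these sums, and by gene 2 were higher, 2 lower, Epx among them (-0.99 ± 0.53 and -3.62 ± 1.12 log2 CPM, SD, n = 3), and 4 overlapped. T and NK cell markers were at 21.6 to 29.3 CPM in PreNeut and 3.21 to 5.24 CPM in ProNeut, and Nkg7 gave 99.1% and 56.3% of that. Of the 3 in the table, 1 was higher and 1 lower in every ProNeut library. Erythroid markers were at 47.6 to 68.9 and 78.0 to 86.7 CPM, and Tfrc gave 91.3% and 39.2% of that. Of these 11, 9 were higher and 1 lower in every ProNeut library. The 12 CMP and GMP markers, all with reads in both, summed to less in ProNeut, at 1015 to 1186 CPM in PreNeut and 159 to 249 CPM in ProNeut. Their part in the result was not tested.

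The other genes of the pathway were taken from 4 lists of 79 genes, of which 72 were in the table and 65 were tested. These lists, too, were chosen with earlier results of these data known. In CD115plusGMP against CMP, 24 were called higher and 2 lower (4.56% of all genes were lower), with a median difference of 1.28 against 0.26 log2 units over all genes. Of 33 kinases and adaptors 16 were higher, among them Sh3bp2, an adaptor of Syk signalling, by 3.11 ± 0.62 (limma, adjusted p = 0.00281) and Lyn by 2.04 ± 0.31. Fgr had 7 against 0 reads, at least 4.05-fold higher. Of 15 genes of inhibitory signalling 6 were higher, led by the ITIM receptors Clec12a (4.62 ± 0.54, adjusted p = 2.41e-05 by limma) and Sirpa (3.61 ± 0.34). Of 12 ITAM chains and partner receptors Clec5a (4.40 ± 0.49) and Tyrobp (3.02 ± 0.53) were higher and Trem1, an activating receptor of neutrophils and monocytes, was lower on 1 against 17 reads. Bcl10, a Card9 partner chosen here after its values were seen, was the other lower gene, on 0 against 8 reads. With only the 9 libraries of the set, 17 of the 65 were called: 16 of the 24 higher genes, while both lower calls were lost (Bcl10 adjusted p = 0.213, Trem1 0.0781 by limma) and Siglech was lower (0.0277).

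In Neutrophil against CMP, 48 pathway genes were called higher and 2 lower (17.1% of all genes were lower). The median was 3.35 against 0.60 over all genes, and 47 of the 48 had over 3 reads in a group. The exception, Fcrl1, had 0 reads in both populations and was called on the value given to 0 reads. Of 33 kinases and adaptors 27 were higher: Syk stood at 1.46 ± 2.01 log2 CPM in CMP and 7.63 ± 0.53 in Neutrophil (SD, n = 3), a difference of 6.17 ± 0.65 (limma, SE; adjusted p = 1.01e-06). Lyn differed by 5.09 ± 0.31, and Fgr was at least 227-fold higher on 274 against 0 reads. Of 15 inhibitory genes 11 were higher, including Lilrb4a (7.46 ± 0.63), Pirb (5.67 ± 0.53), the phosphatase Ptpn6 or SHP-1 (4.48 ± 0.36) and Inpp5d (2.30 ± 0.80, adjusted p = 0.0287 by limma). Of 12 ITAM chains and partners 7 were higher, including the C-type lectin receptors Clec4d (8.73 ± 1.31), Clec5a (8.14 ± 0.49) and Clec4e (6.37 ± 0.48). Clec4n was at least 97.7-fold higher on 118 against 0 reads. Plcg1, a phospholipase, and Dok1, an inhibitory adaptor, were the 2 lower genes, on 0 against 13 and 0 against 12 reads, and were named after their values were seen. Both were lost with only the 9 libraries of the set (adjusted p = 0.0931 and 0.0911 by limma), where Siglech was the lower gene (0.0303).

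In Neutrophil against CD115plusGMP, 38 were called higher and 1 lower (13.2% of all genes were lower), with a median of 2.11 against 0.32 over all genes. Kinases and adaptors (21 of 33 higher) included Fgr (5.20 ± 0.38, adjusted p = 4.46e-08 by limma), Rac2, a GTPase of the phagocyte oxidase (3.69 ± 0.41), and Syk (3.68 ± 0.65). Inhibitory genes (9 of 15 higher) included Lilrb4a (5.43 ± 0.63), Cbl, a ubiquitin ligase of Syk (3.73 ± 0.46), and Inpp5d (3.52 ± 0.80). Among 12 ITAM chains and partners 7 were higher, with Trem1 up by 5.91 ± 0.59 on 123 against 1 reads and Trem3 at least 25.8-fold higher on 54 against 0. B2m was higher by 1.82 ± 0.27. The lower gene was Plcg1, on 0 against 10 reads, a call lost with only the 9 libraries of the set (adjusted p = 0.0758 by limma), where Inppl1 was lower instead (-2.08, adjusted p = 0.0449). Of 71 annotated pathway genes, 10 share at least 50 exon bases with an opposite-strand gene. The largest overlaps were those of Cd247 (3007 bases), Rac1 (2309), Inppl1 (1204) and Lat2 (952). Lyn, Ptpn6, Lilrb4a, Plcg1 and Lcp2 are also among the 10. Values of these 10 genes in these 3 populations may include reads of the opposite-strand gene.

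Between ProNeut and PreNeut the count of pathway genes called depended on which libraries gave the spread. Of the 65, limma on all 15 libraries called 2 higher and 1 lower (0.417% of all genes were lower), with a median of 0.16 against 0.07 over all genes. The median was 0.93 for the 12 ITAM chains and partners, 0.13 for kinases and adaptors and 0.12 for inhibitory genes. The value given to 0 reads is 1.19 log2 units higher in ProNeut than in PreNeut. Some of these 12 genes had few reads, such as Clec4n on 4 against 7 and Cd247 on 22 against 26. The part of low counts in the 0.93 was not tested. An unadjusted limma p under 0.05 held for 6 higher and 1 lower of the 65. Over all 14161 genes tested it held for 1126 higher and 515 lower. Clec4d was 6.31 ± 1.31 higher (limma, adjusted p = 0.0154) on 449 against 24 reads. It stood at 2.83 ± 0.34 log2 CPM in ProNeut and at -3.48 ± 4.07 in PreNeut (SD, n = 3). The lowest of these PreNeut values, -8.14, is that of 0 reads in PreNeut replicate 3, and it adds to the size of the difference. Siglech was 3.51 ± 0.82 higher on 37 against 10 reads. Ms4a2, the IgE receptor beta chain of basophils and mast cells, was lower by 2.43 ± 0.61 (limma, adjusted p = 0.0465), that is at -2.15 ± 0.74 against 0.28 ± 0.79 log2 CPM (SD, n = 3), on 15 against 199 reads. Without ProNeut replicate 1, 0 of the 65 were called, and 1 was called without ProNeut replicate 2, ProNeut replicate 3 or PreNeut replicate 2.

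In the fit on the 6 libraries alone, 8 pathway genes were called, 6 higher and 2 lower, against 3.64% and 2.74% of all genes. Added to the 3 above were Pirb (1.60 ± 0.081, adjusted p = 1.4e-09), Lilrb4a (1.19 ± 0.088), Clec4e (1.78 ± 0.15), Pira2 (2.24 ± 0.77) and, lower, Cblb (-1.14 ± 0.26), all named after their values were seen. Pirb and Lilrb4a are inhibitory receptors, and Clec4e signals through Fcer1g. A further 12 had an adjusted p under 0.05 but differed by less than 1 log2 unit, among them Tyrobp (0.67 ± 0.094) and Fgr (0.58 ± 0.089). Pak1, also named after its values were seen, was among these 12 and lower (-0.28 ± 0.093, adjusted p = 0.0390 by limma). At any size, an adjusted p under 0.05 thus held for 20 of the 65. Over all genes tested it held for 10.8% in the higher direction, and the lower share is not reported here. Syk (0.13 ± 0.65), Lyn (0.16 ± 0.31), Inpp5d (0.16 ± 0.80) and Ptpn6 (0.15 ± 0.36) gave adjusted p = 1.0 in the fit on all libraries (limma, SE). B2m gave 0.11 ± 0.27 (adjusted p = 1.0 by limma).

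**Figure D3:**
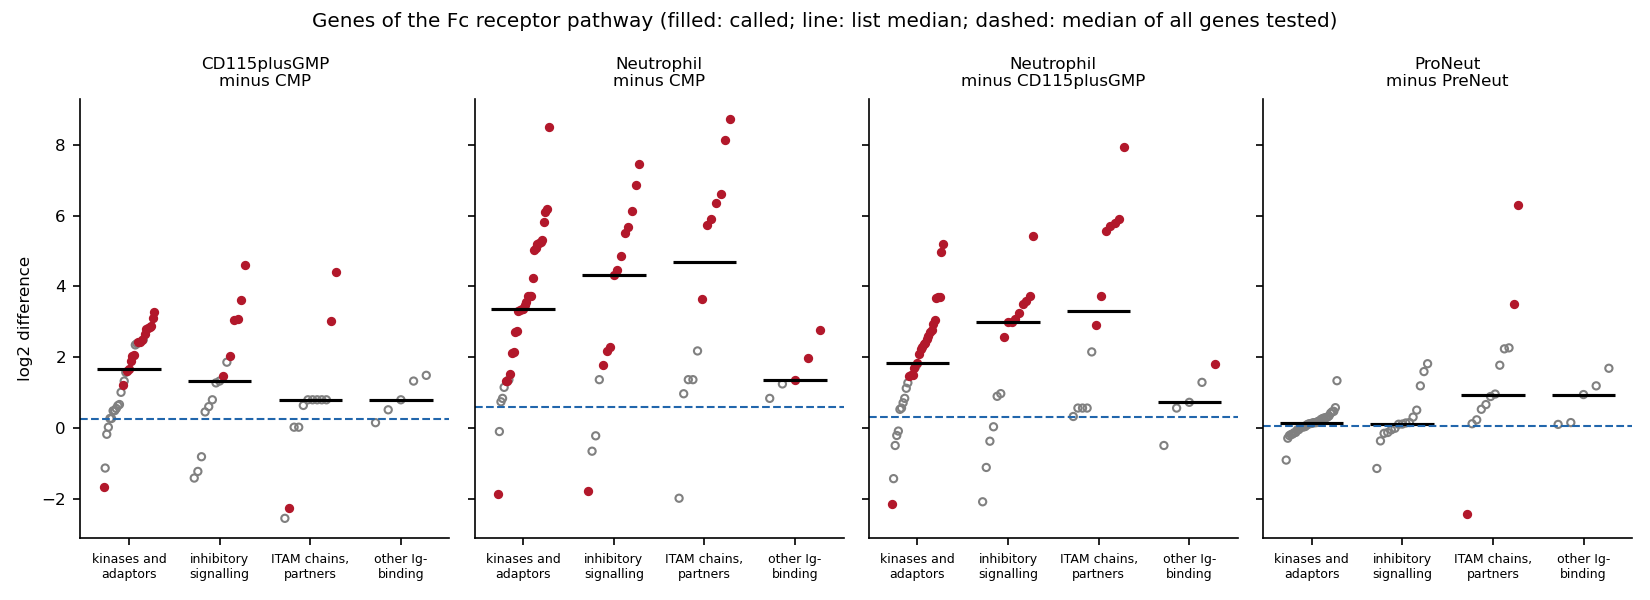
Log2 differences (y axis) of the tested genes of the 4 pathway lists in each comparison; filled points were called, black lines are list medians and the blue dashed line is the median of all genes tested. List medians lie well above the dashed line in both Neutrophil comparisons for 3 of the 4 lists, and near it between ProNeut and PreNeut for kinases, adaptors and inhibitory genes.

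The genes most like each member were sought by Pearson r over the 15 libraries after centring each library set on its own mean, among 4437 genes with a mean of at least 5 log2 CPM in a population. The libraries share sets, depths and populations, so r is only a description. For Fcgr3 they were Spi1, a myeloid transcription factor gene (r = 0.982), Rogdi (0.978) and Clec5a (0.978). For Fcer1g they were Gdi2 (0.969), the interleukin-6 receptor Il6ra (0.961) and Ctdsp1 (0.959). For Fcgr4 they were the kinase Stk11 (0.973), Sp100 (0.967) and the RNA editing enzyme Apobec1 (0.963). For Fcgr2b they were Msantd3 (0.946), Rnf144b (0.945) and the leukotriene A4 hydrolase Lta4h (0.927). Fcgr1 reached at most 0.648, with Slc18a2, and Fcgrt 0.922, with Rufy2, both on few reads.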

How the data were processed

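RNA was sequenced from 15 libraries, 3 for each of 5 sorted bone marrow populations, with the Universal Plus mRNA-Seq kit per the labels. The authors deposited log2 CPM values. The submitters' processing notes name GRCm38 (mm10) together with edgeR 1.30.5, featureCounts 1.22.2 and FastQC 0.11.7. No source used here gives the aligner, the strand setting or the treatment of multiply matching reads. Each deposited value equals the log2 of whole reads plus 0.5, scaled to an implied library size that differs from the recovered reads. With it, 100% of values gave whole reads (tolerance 0.001), so reads were recovered.

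The 14161 genes above 0 log2 CPM in 3 or more libraries were fitted with limma 3.58.1 (R 4.3.3; group means, eBayes with trend), with p-values 2-sided and adjusted by Benjamini-Hochberg over all genes tested. Calls needed a difference of at least 1 log2 unit besides an adjusted p under 0.05. Ratios of scaled reads carry exact 95% counting intervals, and 3 reads over a group served as the limit of 0. Folds given as at least a value leave out the counting error of the higher group. Alternatives were other scalings, filters and library choices. The limma script was checked on simulated data. Replicates differed by more than sampling noise (chi-square per degree of freedom 2.10 to 24.4).

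The members, pathway lists and marker lists were chosen with earlier results of these data known. Named were all members and, per list and comparison, up to 4 called genes with the largest difference whose libraries did not overlap, B2m, Tyrobp, Syk, Lyn, Inpp5d and Ptpn6, and the 3 genes most like each member; values of some list genes are not reported here. Coordinates are from GENCODE on GRCm38; promoters, for all 6 members, are from RefSeq on GRCm38.p6. T and NK cell, erythroid, and megakaryocyte and platelet marker lists were also checked: they summed to 0 to 29.3, 0 to 646 and 1.9 to 429 CPM over the libraries, and CMP and GMP markers to 53.2 to 918 CPM in the first set.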

Additional observations from a re-analysis of the deposited data

How the results depend on the processing

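In CD115plusGMP against CMP, 1790 genes were called (1144 higher, 646 lower) and 2795 with quantile normalization (1493 and 1302). The split turned to 696 higher and 1383 lower with reads scaled to the table's total, 825 and 1059 with the total over genes with a symbol, and 1291 and 302 with median centring. Those 3 scalings also moved the split in Neutrophil against CMP (3792 and 2420) to 1923 and 4652, 2332 and 3820, and 5534 and 1116, with 3636 and 3491 under quantile normalization. In Neutrophil against CD115plusGMP (2861 and 1865) they gave 1799 and 3121, 2109 and 2675, and 3758 and 1024, with 2699 and 2667 under quantile normalization. The median of all genes in CD115plusGMP against CMP went from 0.26 to between -0.30 and 0.61 log2 units. Under these 4 scalings Fcgr3 stayed 3.62 to 5.26 and Fcer1g 2.64 to 4.22 higher there. Pathway genes called there were 26, and 17 in the fit on the same set's 9 libraries.

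In ProNeut against PreNeut, 320 genes were called (261 higher, 59 lower): 186 with median centring, 121 with quantile normalization (76 and 45), 91 with log2 of CPM plus 1 (62 and 29), 190 with log2 CPM above 3 and 903 with the same set's 6 libraries. The 3 pathway genes called became 1 under each of the first 4 of these and 8 under the last, where members called rose from 0 to 1. Leaving out replicates gave 195 to 405 genes, 0 to 2 pathway genes and 0 members; in the same-set fit, an alternative added after seeing the data, it gave 662, 778 and 765 genes without ProNeut replicates 1 to 3 and 956, 987 and 927 without those of PreNeut, with 5, 5, 6, 6, 7 and 8 pathway genes in that order and 1 member each time. The Fcgr1 difference ranged from -1.23 to 0.50, turning positive without ProNeut replicate 1, and that of Fcgrt from -0.27, without PreNeut replicate 3, to 3.35. The cause was not tested. Fcgr1 and Fcgrt did not pass the filter at log2 CPM above 3. The planned count-based tests, edgeR and DESeq2, were run only in a trial on the recovered reads and are not reported with values. In that trial, edgeR lost the Fcgr2b call in CD115plusGMP against CMP, and both tools called Fcgr4 higher in ProNeut than in PreNeut. These trial outcomes are not among the results given here and add no support to any call.

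Replicate numbers were checked as pairs: same-numbered libraries correlated at -0.053 to 0.145, and unlike-numbered ones at -0.133 to 0.095. In ProNeut against PreNeut the same-numbered pairs gave 0.083, 0.054 and 0.145, and the unlike-numbered pairs -0.133 to 0.090. With 3 libraries per group, these values cannot decide whether same-numbered libraries share a batch or an animal. With a replicate block, 1680 genes were called in CD115plusGMP against CMP, 6106 and 4712 in Neutrophil against CMP and against CD115plusGMP, and 285 in ProNeut against PreNeut; member calls stayed at 3, 4, 3 and 0. In the first set, 0 to 205 reads per population limit what can be seen.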
